A study of Danio rerio with 6 samples.

Results

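In whole zebrafish larvae treated with hydrogen peroxide (H2O2), 7 genes of DNA repair and apoptosis were followed, namely the nucleotide excision repair genes ddb2, xpc and ercc6, the stress-inducible paralogs gadd45ab and gadd45bb, and the apoptosis genes apaf1 and xiap. They were taken by symbol, or for ercc6 by the identifier ENSDARG00000075612, from the deposited table, in which they are 7 of 670 genes. The table holds messenger RNA levels of 6 libraries, 3 from treated and 3 from untreated larvae. Treated larvae of the nacre strain, which lacks the dark pigment cells of the skin, were kept in water with 3 mM H2O2, and untreated larvae of the same strain and age received none. Per the sample labels the larvae were 3 days old and the exposure lasted 2 hours. For these libraries the paper's results and methods give older larvae and a longer exposure than the labels do. The files could not settle which holds. Each library came from a pool of larvae, which were anesthetized in Tricaine for the treatment. Whether the untreated larvae were anesthetized is not given in the sources used here. Because whole larvae were extracted, fewer cells of a type and less RNA per cell cannot be told apart in any value below.

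Nucleotide excision repair removes bulky lesions, such as those made by ultraviolet light, by cutting out a short stretch of the damaged strand and filling the gap. Ddb2 and Xpc recognize lesions anywhere in the genome, whereas Ercc6 acts where RNA polymerase has stalled on a transcribed strand. Gadd45 proteins are small nuclear proteins that are induced by stress and feed into kinase signaling and growth arrest. Apaf1 assembles with cytochrome c into the apoptosome, which activates caspases, and Xiap binds and inhibits caspases. In human cells DDB2, XPC, GADD45A and APAF1 are known targets of p53.

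The deposited table had been restricted beforehand to genes that passed a limit on p, and one on mean level, in the same comparison of treated with untreated larvae. A difference was therefore a condition of being listed, and the values of the 7 genes describe them and do not test whether they respond. Values are CPM, which is reads of a gene scaled to a fixed library size, or the deposited log2(CPM + 1). A difference is the mean log2(CPM + 1) of H2O2-treated libraries minus that of untreated libraries, with its standard error (SE) from limma, a linear model with moderated variances. Only the 670 listed genes were fitted. Moderation thus drew on selected genes alone, and SEs and intervals may be too narrow. The Benjamini-Hochberg adjustment of the p-values used a larger number of tests, the count of expressed genes. That count was derived from the paper's text and not from the table. The adjustment ranks every unlisted gene behind the listed ones, so adjusted p-values may be too high for that reason. By limma with this adjustment, 0 of the 7 genes passed an adjusted p of 0.05, as did 0 of the 670 genes (0%). At an unadjusted p under 0.05 there were 7 of the 7, against 93.3% of the table. The library totals implied by the values were 24727594 to 30400463 reads in treated and 31811527 to 39766947 reads in untreated libraries, and the lowest count for any of the 7 genes was 125 reads.

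The 6 genes ddb2, xpc, ercc6, gadd45bb, apaf1 and xiap lay higher in treated larvae, at 1.33 to 1.73 times the untreated mean CPM, and gadd45ab lay lower, at 0.72 times. In all 7 genes the 3 treated libraries stood apart from the 3 untreated ones without overlap. Of the table, 93.9% did the same, 58.4% with treated libraries above and 35.5% with treated libraries below. For 3 libraries against 3, an exact two-sided permutation test cannot go below p = 0.10, which each of the 7 genes reached. Any gene whose groups do not overlap reaches it, so the test adds nothing to the lack of overlap.

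**Figure D1:**
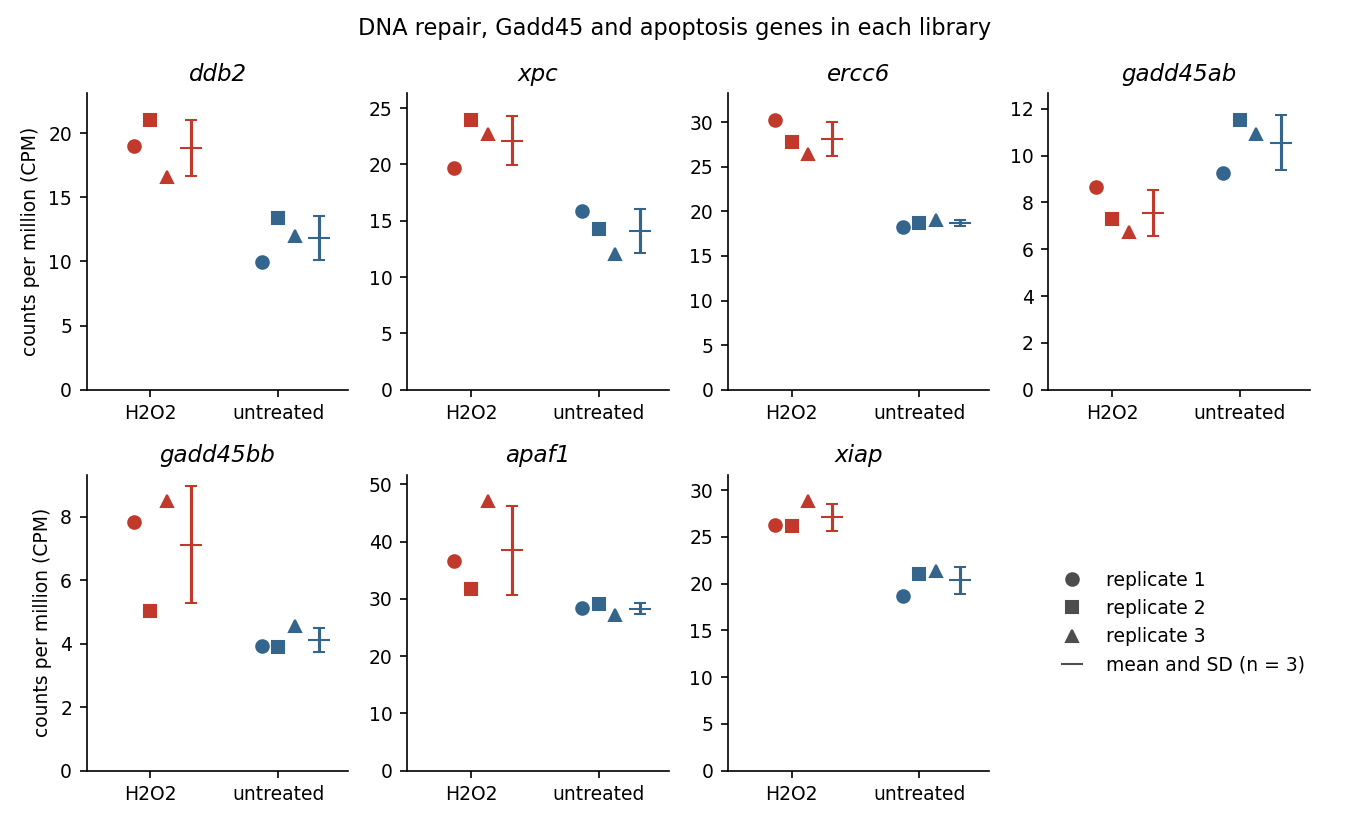
CPM of each of the 7 genes in the 3 H2O2-treated libraries (left, red) and the 3 untreated libraries (right, blue), on axes that start at 0. Points are single libraries, and bars give the mean and SD. Treated libraries lie above untreated ones in 6 genes and below them in gadd45ab, with the widest treated spread relative to the mean in gadd45bb (5.03 to 8.49 CPM).

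The damage sensor ddb2, on chromosome 18 from 20248868 to 20260045 of the Zv9 assembly, stood at 19.0, 21.0 and 16.6 CPM in treated libraries, against 9.996, 13.4 and 12.0 CPM in untreated libraries. Its means were 18.9 ± 2.17 and 11.8 ± 1.70 CPM (SD, n = 3 each), in treated and in untreated larvae. The lowest treated library, replicate 3, was still above the highest untreated one, and the groups were 0.29 apart on the log2 scale at their nearest points. The difference was 0.64 (SE 0.15, adjusted p = 0.45 from limma).

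Values of xpc, the partner of ddb2 in finding lesions across the genome, were 19.7, 23.9 and 22.7 CPM in treated libraries and 15.9, 14.3 and 12.0 CPM in untreated libraries. The gene lies on chromosome 8 from 26860933 to 26883893. Untreated replicate 1 was the highest untreated library here, whereas for ddb2 it was the lowest. The difference of xpc was 0.62 (SE 0.14, adjusted p = 0.446 from limma), with groups again 0.29 apart.

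The model ENSDARG00000075612, on chromosome 13 from 31097773 to 31133332, is annotated as ercc6, an ATPase of transcription-coupled repair. It showed 30.2, 27.8 and 26.4 CPM in treated libraries against 18.3, 18.7 and 19.0 CPM in untreated libraries. The untreated libraries were closer to each other than for the other 6 genes on the log2 scale, with an SD of 0.03, and the gap of 0.45 between the groups was the widest of the 7. The difference was 0.57 (SE 0.11, adjusted p = 0.315 from limma), and leaving out each library in turn gave adjusted p-values from 0.0831, without H2O2 replicate 3, to 1.

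These 3 genes thus lay at 1.60, 1.57 and 1.51 times the untreated mean CPM. Ratios between them within a library did not separate the groups. Such ratios follow from the similar differences of the 3 genes and were not tested. The CPM of ddb2 divided by that of xpc was 0.86 ± 0.12 in treated and 0.86 ± 0.20 in untreated libraries (SD, n = 3 each), and that of ercc6 divided by xpc 1.29 ± 0.22 in treated and 1.35 ± 0.22 in untreated libraries. CPM is not corrected for transcript length, so only the change of such a ratio between groups can be read and not its level.

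Among the 414 higher genes of the table, which are ranked by the size of the difference, ddb2 stood at place 95, xpc at 99 and ercc6 at 131. For nucleotide excision repair 30 symbols were listed, among them ddb1, xpa, the other ercc genes and subunits of TFIIH. Only these 3 models were in the table. All 3 were higher, as were 61.8% of the table. Their median difference was 0.62, against 0.47 for the higher genes and 0.40 for all genes of the table. These 3 were chosen with earlier results of these data known, so their median is no result about the pathway. In limma 0 of the 3 passed the adjusted threshold and 3 had an unadjusted p under 0.05, against 93.3% of the table. Values of the other 27 listed symbols were not analysed here.

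**Figure D2:**
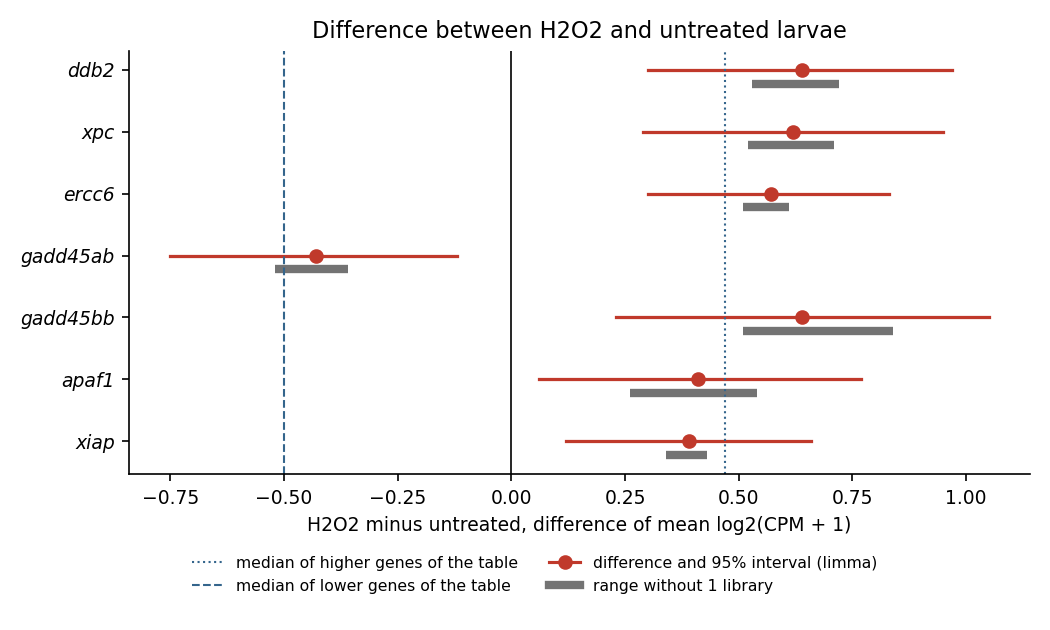
Difference of mean log2(CPM + 1), H2O2-treated minus untreated, for each gene (point) with its 95% interval from limma (red line) and the range of the difference when each library is left out in turn (grey bar). Vertical lines mark 0 and the medians of the higher (0.47) and lower (−0.50) genes of the table. The intervals of the 6 higher genes overlap one another, and apaf1 has its interval nearest to 0 (0.06 to 0.77).

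The Gadd45 paralogs lay on opposite sides of the untreated level. In gadd45bb, on chromosome 2 from 36660582 to 36662821, treated libraries stood at 7.85, 5.03 and 8.49 CPM and untreated libraries at 3.93, 3.90 and 4.56 CPM. H2O2 replicate 2 lay close to the untreated libraries, 0.12 above the highest of them on the log2 scale, while replicates 1 and 3 were far above. The difference was 0.64 (SE 0.18, adjusted p = 0.685 from limma), at place 92 of the 414 higher genes. It was 0.84 without H2O2 replicate 2 and 0.51 without H2O2 replicate 3.

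In gadd45ab, on chromosome 6 from 20074688 to 20082606, treated libraries stood at 8.65, 7.27 and 6.75 CPM and untreated libraries at 9.24, 11.5 and 10.9 CPM. The highest treated library, replicate 1, was 0.09 below the lowest untreated one on the log2 scale, the narrowest gap of the 7 genes. Its difference was −0.43 (SE 0.14, adjusted p = 0.866 from limma), at place 198 of the 256 lower genes, which had a median of −0.50. The 5′ end of gadd45ab overlaps by 207 bases that of SEC16B, a gene on the opposite strand whose protein organizes exit sites of the endoplasmic reticulum. SEC16B, also in the table, had 2.94, 3.22 and 3.64 CPM in treated and 4.65, 4.43 and 5.40 CPM in untreated libraries, a difference of −0.45 (SE 0.13, adjusted p = 0.685 from limma). The library protocol names no strand-marking step, so reads lying within the shared bases may not be told apart. The overlap is one of gene spans. Exons were not examined, and how many reads fell there was not tested.

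Within each library, the CPM of gadd45bb divided by that of gadd45ab was 0.91, 0.69 and 1.26 in treated libraries against 0.43, 0.34 and 0.42 in untreated libraries. No treated library reached down to the untreated ones, and the log2 ratio was higher in treated larvae by 1.24 (unpooled SE 0.27). It was taken on CPM without the added 1, where the differences were 0.76 for gadd45bb and −0.48 for gadd45ab. Both genes were listed for their own differences, so this ratio follows from them and was not tested. A uniform scaling of a library cancels in it. Of 9 symbols listed for the Gadd45 family and its partner kinase Map3k4, only these 2 were in the table. Their median difference of 0.10 lies between 2 opposite differences and describes neither gene. In limma 0 passed and 2 were at an unadjusted p under 0.05, against 93.3% of the table.

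**Figure D3:**
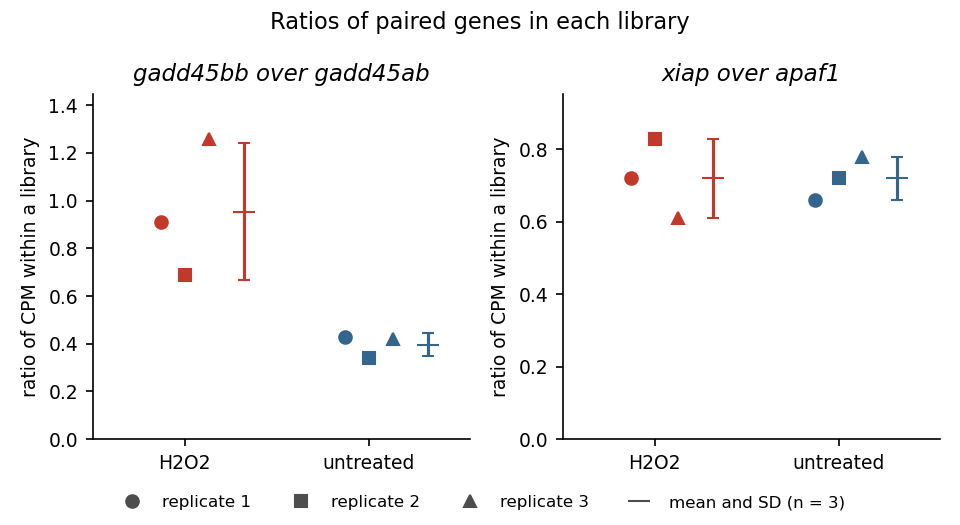
Ratio of CPM within each library for gadd45bb over gadd45ab (left) and xiap over apaf1 (right), in H2O2-treated (red) and untreated (blue) libraries, with mean and SD. The paralog ratio was 0.95 ± 0.29 in treated and 0.39 ± 0.05 in untreated libraries, whereas the ratio of xiap to apaf1 overlapped between the groups.

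The apoptosome gene apaf1, on chromosome 4 from 16911901 to 16942232, had 36.6, 31.7 and 47.0 CPM in treated libraries against 28.4, 29.1 and 27.2 CPM in untreated libraries. Replicate 3 was the highest treated library by a wide margin, and replicate 2 was 0.12 above the highest untreated library on the log2 scale. The difference of 0.41 (SE 0.16, adjusted p = 1 from limma) was 0.26 without H2O2 replicate 3 and 0.27 when the libraries were shifted to one median.

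The caspase inhibitor xiap, on chromosome 14 from 29493295 to 29503541, had 26.3, 26.2 and 28.8 CPM in treated libraries against 18.7, 21.0 and 21.4 CPM in untreated libraries. The treated libraries were close to each other, with an SD of 0.07 on the log2 scale, the smallest treated SD of the 7 genes. The difference was 0.39 (SE 0.12, adjusted p = 0.762 from limma) and stayed between 0.34 and 0.43 when each library was left out in turn. It was 0.25 when the libraries were shifted to one median. That shift lowers the difference of every gene, apaf1 included, by the same amount. The nearest gene of the table on the same chromosome, acsl4a, which encodes an acyl-CoA synthetase, ends 13727 bases away on the same strand and had a difference of 0.57 (SE 0.13).

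The activator and the inhibitor were thus both higher in treated larvae, at 1.36 and 1.33 times the untreated mean CPM. The CPM of xiap divided by that of apaf1 was 0.72, 0.83 and 0.61 in treated libraries and 0.66, 0.72 and 0.78 in untreated libraries. The groups overlapped, with equal means of 0.72 and a log2 ratio that differed by −0.02 (unpooled SE 0.14). Both genes were listed for their own, similar differences, so this ratio follows from them and was not tested. By the size of the difference, apaf1 stood at place 307 and xiap at place 351 of the 414 higher genes. Among 16 symbols of the apoptosome and the caspases apaf1 alone was in the table, and among 6 of the inhibitor of apoptosis family xiap alone. Neither passed in limma, and both were at an unadjusted p under 0.05, as was 93.3% of the table. Of 21 symbols of the Bcl2 family, which controls cytochrome c release, 0 were in the table. Since the table holds 670 of the 24050 genes counted as expressed, such an absence is no result about the family.

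The treated libraries did not contribute alike. H2O2 replicate 3 had the lowest implied total of all libraries, 24727594 reads, and the part of depth was not tested. The library that departed most from untreated larvae was H2O2 replicate 3 in 316 of the table's 414 higher genes (76.3%), replicate 1 in 69 and replicate 2 in 29. The same held for gadd45bb, apaf1 and xiap, and replicate 3 was also farthest below in gadd45ab, as in 57.4% of the lower genes. In the repair genes it was not: ddb2 lay 0.65, 0.79 and 0.47 above the untreated mean log2(CPM + 1) in replicates 1, 2 and 3, xpc 0.46, 0.74 and 0.66, and ercc6 0.67, 0.55 and 0.48. For comparison, the median higher gene lay 0.42, 0.34 and 0.72 above it. Without H2O2 replicate 3 the difference of ddb2 was 0.72 (0.64 with it), that of ercc6 0.61 (0.57 with it) and that of xpc 0.60 (0.62 with it). Whether the repair genes differ from the other genes in this order was not tested.

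Of 44 symbols marking keratinocytes, leukocytes, erythrocytes, muscle, photoreceptors and liver, 3 were in the table. The embryonic globin hbae1, of erythrocytes, exceeded its untreated mean by 0.07, 0.26 and 1.42 in H2O2 replicates 1, 2 and 3, and the liver gene cp, which encodes ceruloplasmin, 0.21, 0.33 and 1.11. Their levels were 439.8 to 1115.7 CPM in treated and 372.9 to 484.9 CPM in untreated libraries for hbae1, and 150.4 to 281.7 and 129.2 to 130.3 CPM in the same groups for cp. These genes stood out in the same library as apaf1, and their part in its value was not tested. The cone gene pde6h was at −0.10 in replicate 3 and at −1.01 and −1.12 in replicates 1 and 2. Each of these 3 lists rests on 1 gene of the table, and the tissue of origin was not checked further.

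**Figure D4:**
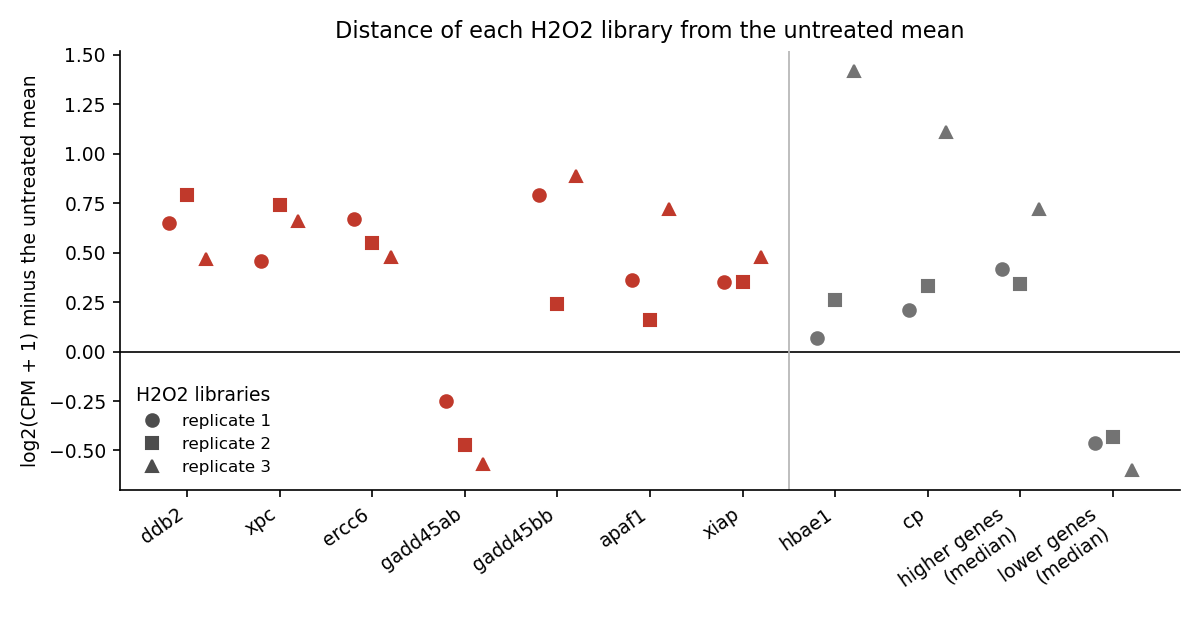
Distance of each H2O2-treated library from the untreated mean, in log2(CPM + 1), for the 7 genes (red), and for the markers hbae1 and cp and the median higher and lower gene of the table (grey). Symbols mark replicates 1 to 3. Replicate 3 lies highest in gadd45bb, apaf1, xiap, hbae1, cp and the median higher gene, but not in ddb2, xpc or ercc6. The marker pde6h is not plotted. It departed least in replicate 3 (−0.10, against −1.01 and −1.12 in replicates 1 and 2).

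Counting of reads alone would give an SD of 0.052 on the log2 scale for ercc6, beside an SD within groups of 0.071 over both groups and of 0.03 among the untreated libraries. For gadd45bb, the gene with the fewest reads (125 to 238 per library), the counting SD was 0.093 and the SD within groups 0.259, and for apaf1, with 903 to 1163 reads, they were 0.044 and 0.201. Counting error covers sampling of reads only.

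For each of the 7 genes, the table was searched for the genes with the nearest profile, by the mean absolute difference of log2(CPM + 1) over the 6 libraries after each gene's untreated mean was subtracted. The nearest to ddb2 were tefa, a bZIP transcription factor of the clock output, at 0.040, the cryptochrome cry1b at 0.044 and the fatty acid transporter slc27a6 at 0.058. All were highest in H2O2 replicate 2 and lowest of the treated libraries in replicate 3, as ddb2 was. They were chosen by nearness in these libraries, so a shared order largely follows from the choice. The profile of ercc6 stood at place 9 of 669 from ddb2, at 0.103, and that of xpc at place 133, at 0.201. The apoptosis gene xiap was nearer to ddb2 than xpc was, at place 70 and 0.167. Nearest to ercc6 itself was hbp1, an HMG-box transcription factor, at 0.035, and nearest to xpc was leprel1, a prolyl hydroxylase of collagen, at 0.087.

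The nearest to gadd45bb were the stress-induced transcription factor atf3 at 0.067, the prolyl hydroxylase egln3 at 0.071 and zgc:91849 at 0.073. In each of them replicate 2 was the lowest treated library, which again largely follows from the choice. The nuclear receptor rorca at 0.043, the annexin anxa5a at 0.052 and the tissue factor gene f3b at 0.055 were nearest to gadd45ab. For apaf1 they were mbd5, annotated as a methyl-CpG binding domain protein, at 0.022, MKL2 (3 of 3) at 0.028 and TUBGCP6 at 0.029. MKL2 is a coactivator of serum response factor, and TUBGCP6 belongs to the gamma-tubulin complex. For xiap the nearest were JTB at 0.025, the sphingomyelinase gene smpd5 at 0.029 and TTC17 at 0.031. These distances describe 6 libraries and a table selected for a difference between the groups.

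**Figure D5:**
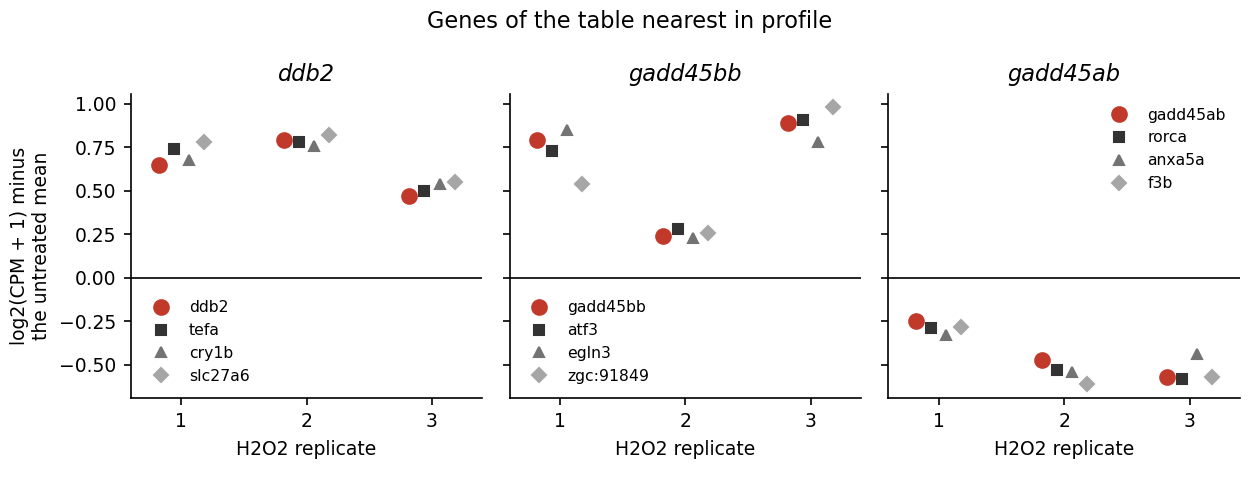
Distance from the untreated mean in log2(CPM + 1), in each H2O2-treated library, of ddb2, gadd45bb and gadd45ab (red circles) and of the 3 genes of the table nearest to each in profile (grey symbols). The genes near ddb2 are lowest in replicate 3, and those near gadd45bb are lowest in replicate 2. This order largely follows from choosing genes by nearness in the same libraries.

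Of 155 symbols in 10 lists of repair, Gadd45, p53 and apoptosis genes, 11 were in the table, the 7 described above and 4 others. The photolyase relatives cry5 and cry-dash, flavoproteins of the family that repairs ultraviolet lesions with light, had differences of 1.63 (SE 0.21, adjusted p = 0.0775 from limma) and 1.30 (SE 0.16, adjusted p = 0.0675 from limma). In cry5, treated libraries stood at 29.3, 31.1 and 39.1 CPM and untreated libraries at 7.01, 12.4 and 11.1 CPM. The stress-induced sestrin gene sesn2 was the only one of 23 symbols of the p53 list in the table, with a difference of 0.48 (SE 0.15). That list left out genes placed in other lists, among them ddb2, xpc, gadd45ab and apaf1, whose human counterparts are p53 targets. Levels of sesn2 were 7.03, 5.92 and 8.33 CPM in treated and 5.41, 4.45 and 4.53 CPM in untreated libraries. The mismatch repair gene mlh3, 1 of 8 symbols of its list, had 3.30, 2.43 and 1.21 CPM in treated and 3.99, 3.82 and 3.56 CPM in untreated libraries, a difference of −0.58 (SE 0.22). The lists of base excision repair (18 symbols) and of double-strand break repair and its checkpoint (20 symbols) had 0 in the table. The table holds 670 of the 24050 genes counted as expressed, so the absence of a short list is no result about its genes. A symbol can be absent through the limit on p, the limit on mean level or its name. In limma 0 of the 4 genes cry5, cry-dash, sesn2 and mlh3 passed, and 4 were at an unadjusted p under 0.05, against 93.3% of the table.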

How the data were processed

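The authors trimmed paired-end reads with Trimmomatic, aligned them to Ensembl transcripts of Zv9 and quantified them with RSEM, computed CPM and tested genes with edgeR, per the paper. TopHat with Bowtie2 2.0.9, and Cufflinks with Cuffdiff, stand in the submitters' processing notes too. The deposited log2 values are log2(CPM + 1) per library. The same table holds the authors' fold changes, p-values and FDR, which were not used.

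Each deposited value, turned back into reads, was whole within 0.05 in 100% of values, which gave the library totals. No count test was run, although whole reads could be recovered for these selected genes. The 670 genes were fitted by limma 3.58.1 in R 4.3.3, with treatment as the only term (prior degrees of freedom 4.40), two-sided. As the table was selected on these libraries, the adjustment of its p-values used a larger number of tests, the annotated genes less those at zero in every library, from the paper's text. P-values set a difference against the spread between pools, as seen in these selected genes.

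Gene lists were matched by symbol, ignoring case and endings such as "(1 of 2)". The 7 genes and the lists were chosen with earlier results of these data known. Named genes were the 7, every listed gene in the table, and the 3 nearest profiles of each of the 7, with SEC16B and acsl4a added as neighbours after values were seen. Reference tables named 6 of the 7 Ensembl identifiers and 7 of the 7 NCBI identifiers. Promoter motifs, planned at first, were not analysed here. Alternatives were other pseudocounts, a filter on low values, other moderation, median scaling, a replicate block, adjustment over the table alone and leaving out each library.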

Additional observations from a re-analysis of the deposited data

How the results depend on the processing

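In 16 alternatives the 7 genes gave 111 differences, 111 of them in the same direction. The groups did not overlap in any of the 7 genes, so most alternatives could not reverse a direction. Only the shift to one median could have done so, and the count is no support for the differences. With the adjustment over the table alone 7 of the 7 passed, as did 11 listed genes and 617 of the table, which is not independent evidence. In the other alternatives 0 of the 7 passed, and 5 to 7 were at an unadjusted p under 0.05. Shifting the libraries to one median took 0.14 off each difference by construction, giving 0.27 for apaf1, 0.25 for xiap and −0.58 for gadd45ab. With log2(CPM + 5), gadd45bb was at 0.40, and gadd45bb, under a mean log2(CPM + 1) of 3, was not in the filtered fit. Leaving out 1 library gave 0 to 9 genes of the table past the threshold, 9 without H2O2 replicate 2 and 1 without H2O2 replicate 3.

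Deviations of same-numbered libraries from their group means correlated at −0.00137, −0.105 and −9.64e-05 over the genes of the table. These genes were selected by p on the same libraries, so the correlations cannot settle whether replicate numbers pair the libraries. A replicate block gave 0 of the 7, 2 of the listed genes and 71 of the table past the threshold. Its prior degrees of freedom were 22.4, against 4.40.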

Other observations

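The deposited annotation gives the term DNA metabolic process to 13 of the 479 annotated genes of the table, a group taken up after the data were seen. Of these 13, ddb2 and xpc among them, 8 were higher and 5 lower in treated larvae, against 61.8% higher in the table. In limma 0 passed the adjusted threshold and 12 had an unadjusted p under 0.05, against 93.3% of the table. The median difference was 0.59, against 0.40 for all genes of the table. Cryptochromes make up 6 of the 13 genes, and ercc6 does not carry the term. The lower ones include obfc1, of the telomere-capping CST complex, at 2.05, 1.87 and 1.29 CPM in treated and 2.92, 3.57 and 3.02 CPM in untreated libraries (difference −0.61, SE 0.15), and helb, a DNA helicase, at −0.45 (SE 0.16). The cryptochrome cry2a, at 138.0, 120.6 and 104.5 CPM in treated and 227.7, 258.2 and 244.6 CPM in untreated libraries, had the lowest difference of the group, −1.01 (SE 0.14).

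The term response to stress stood on 32 genes, 21 higher and 11 lower, against 61.8% higher in the table. Among them were 4 of the 7 repair, Gadd45 and apoptosis genes: ddb2, xpc, gadd45ab and gadd45bb. The term cell death stood on 3 genes, and apaf1 and xiap carried neither term.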
